A study of Drosophila melanogaster with 3 samples.

Results

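The step of lymph gland development between 72 and 96 h after egg laying (AEL) was described by comparing the single library of 96 h AEL with the single library of 72 h AEL, gene by gene. Every gene with at least 1 CPM (counts per 1000000 counts of the library) in either library was included, which kept 8967 of the 17490 genes counted, 7522 of them at 1 CPM or more at 96 h AEL and 8780 at 72 h AEL. The series measured bulk RNA of the lymph gland, the organ in which Drosophila larvae form blood cells, in 3 libraries, the other one being of 120 h AEL. All larvae were of the wild-type laboratory strain Oregon-R and in steady state, and no further allele, transgene or agent is named for either time. Each library came from TRIzol RNA of many pooled, undissociated glands, and the dissection kept only the primary lobes, with posterior lobes, ring gland and dorsal vessel taken off. With 1 library a time, a fold below carries a counting error but no replicate check, and it compares libraries, not stages. The age of the larvae is the only labelled difference between them, and cannot be told apart from any difference in dissection, RNA or library preparation.

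The primary lobes hold prohemocytes, which are the progenitors, a small signalling niche (the posterior signalling center, PSC) and an outer cortical zone in which hemocytes mature. Plasmatocytes are macrophage-like and take up microbes and dead cells, crystal cells store the prophenoloxidases that drive melanization, and lamellocytes are flat cells that wrap parasites and are rare in healthy larvae. Hemocytes are also a main source of basement membrane and clotting proteins, and the steroid hormone ecdysone times their development along with that of the whole larva. In bulk RNA, fewer cells of a type and less RNA per cell cannot be told apart, so every level below is a level in the whole gland.

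Total counts were 37922500 at 96 h AEL and 49511614 at 72 h AEL. The floor used for genes not detected, 3 counts, equalled 0.0800 CPM at 96 h AEL and 0.0579 CPM at 72 h AEL. Levels were scaled by trimmed mean of M-values (TMM) factors, 0.989 at 96 h AEL and 1.05 at 72 h AEL. Of genes with 1 to 20 counts, 72.0% had an even count at 96 h AEL and 69.6% at 72 h AEL, as when both mates of a read pair are counted, so 95% intervals of folds were taken on halved counts. The labelled organ was checked against blood cell markers: Hml, a clotting protein of hemocytes, had 15024 CPM at 96 h AEL and 7999 CPM at 72 h AEL. The GATA factor of the blood lineage, srp, had 516 CPM at 96 h AEL and 324 CPM at 72 h AEL. Markers of other tissues were present too, and by summed level most lists of them were lower at 96 h AEL. The muscle list, for example, summed to 1799 CPM at 96 h AEL and 6235 CPM at 72 h AEL, and its values and those of the other tissue lists are given with the losses below.

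More genes were lost than gained at this step. A gene was called when the log2 ratio of CPM + 1 passed 2 in either direction, a 4-fold limit, and by this rule 109 genes (1.22%) were higher and 781 genes (8.71%) were lower at 96 h AEL. These shares over all genes are the ones to set beside the calls of each list and family below. The median log2 ratio of all 8967 genes was -0.03, with 4304 genes above 0 and 4663 below. The higher genes were well expressed, with a median of 59.0 CPM at 96 h AEL against 7.26 CPM at 72 h AEL, and took 3.79% of the counts at 96 h AEL against 0.482% at 72 h AEL. The lower genes were nearly silent at 96 h AEL, with a median of 0.213 CPM against 11.1 CPM at 72 h AEL, and 308 of them had no more than 3 counts then.

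**Figure D1:**
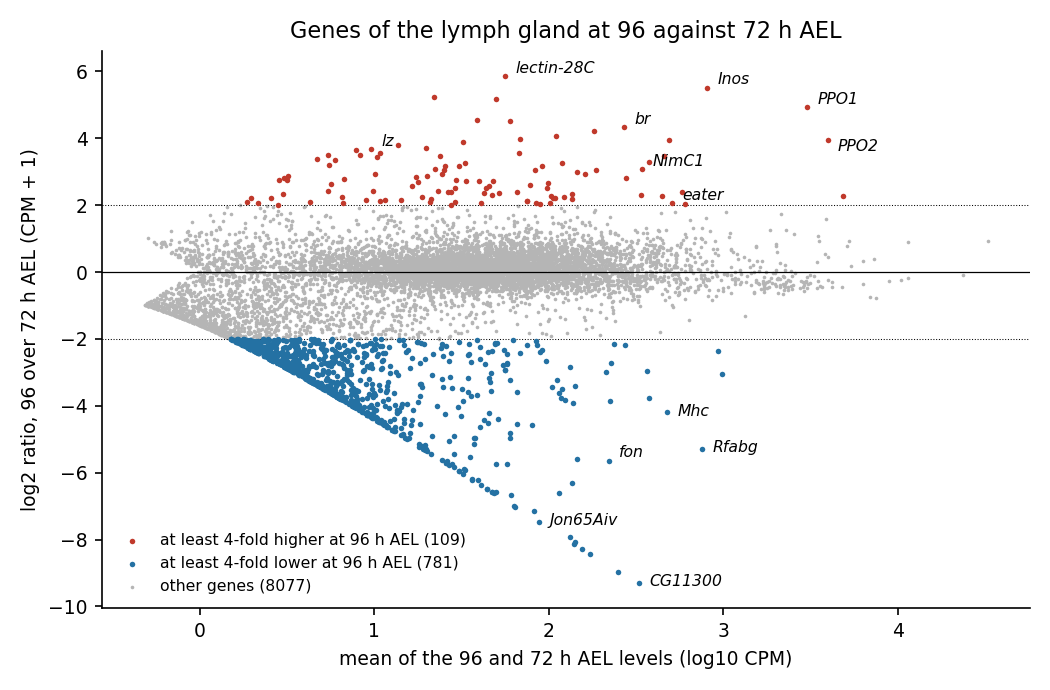
Log2 ratio of each of the 8967 genes at 96 over 72 h AEL (vertical axis, on CPM + 1) against its mean level (horizontal axis, log10 CPM), with 1 point per gene and dotted lines at 4-fold. The 109 higher genes lie at middle and high levels, and many of the 781 lower genes lie along the lower edge, where the level at 96 h AEL was close to 0.

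Crystal cell genes were higher at 96 h AEL. Of the 9 genes listed, 4 were called higher and 0 lower, against 1.22% and 8.71% of all genes. All 9 had ratios above 0, and their median log2 ratio was 1.31 against -0.03 for all genes. They summed to 13793 CPM at 96 h AEL against 934 CPM at 72 h AEL. The Runx factor lozenge (lz, FBgn0002576, chromosome X, 9284649 to 9303636), which commits hemocytes to this fate, had 701 counts at 96 h AEL and 28 counts at 72 h AEL, or 18.7 against 0.541 CPM, a 34.6-fold difference (95% interval 20.3 to 63.8). The zinc finger factor pebbled (peb, chromosome X, 4617564 to 4627206), a target of lz in these cells, had 37.5 CPM at 96 h AEL against 1.93 CPM at 72 h AEL and was 19.4-fold higher (14.6 to 26.4). Thus the regulator of the lineage was under 1 CPM at 72 h AEL, when the enzymes of the lineage were already measurable.

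The prophenoloxidases PPO1 and PPO2 (PPO2 on chromosome 2R, 9042261 to 9044709) are the oxidases that crystal cells release to make melanin. PPO1 had 5868 CPM at 96 h AEL against 191 CPM at 72 h AEL, which is 30.7-fold (29.9 to 31.6). PPO2 had 7468 CPM against 480 CPM at 72 h AEL, which is 15.6-fold (15.3 to 15.8). The genes are similar in sequence and how shared reads were counted is not stated, so the split between them is uncertain. Both were among the 10 largest gains in CPM of all genes. The Notch pathway, which selects crystal cells, moved less and was not called. The receptor N had 176 CPM at 96 h AEL and 76.8 CPM at 72 h AEL (2.29-fold, 2.16 to 2.42). Its ligand Ser had 53.1 CPM at 96 h AEL and 20.7 CPM at 72 h AEL (2.56-fold, 2.30 to 2.85). Su(H), the DNA-binding partner of Notch, was at 22.3 CPM at 96 h AEL against 17.6 CPM at 72 h AEL. The smallest ratio on the list was that of sima, the hypoxia factor that sustains Notch in crystal cells, which had 144 CPM at 96 h AEL and 141 CPM at 72 h AEL.

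Receptors for uptake of microbes and dead cells formed a similar group of gains, but with members that moved the other way. Of 8 Nimrod receptors included, 3 were called higher and 0 lower, against 1.22% and 8.71% of all genes, with a median log2 ratio of 0.69. Without the entry limit, which adds listed genes under 1 CPM in both libraries, that median was 0.00782. NimC1 (chromosome 2L, 13973158 to 13976769), a plasmatocyte receptor for bacteria, had 613 CPM at 96 h AEL against 71.7 CPM at 72 h AEL and was 8.56-fold higher (8.15 to 8.99). Its relative eater (chromosome 3R, 27095867 to 27099679) had 822 CPM at 96 h AEL against 196 CPM at 72 h AEL and was 4.20-fold higher (4.07 to 4.34), but missed the call with total-count scaling (log2 ratio 1.98), which left 2 Nimrod genes called. The corpse receptor draper (drpr, chromosome 3L, 1715595 to 1731107) had 226 CPM at 96 h AEL against 48.4 CPM at 72 h AEL and was 4.66-fold higher (4.38 to 4.97). These transmembrane receptors parted from the secreted NimB proteins, of which only NimB4 (481 CPM at 96 h AEL, 214 CPM at 72 h AEL) differed by over 2-fold (2.25-fold, 2.17 to 2.32). NimB5 was at 239 CPM at 96 h AEL and 236 CPM at 72 h AEL. NimB2 and NimB3 had ratios below 1, NimB2 at 0.784 (0.705 to 0.872) and NimB3 at 0.569 (0.387 to 0.822). The remaining 4 of the 12 listed Nimrod genes (NimA, NimC2, NimC3 and NimC4) were under 1 CPM in both libraries.

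Of 8 scavenger receptors included, 3 were called higher and 0 lower, against 1.22% and 8.71% of all genes, with a median log2 ratio of 0.67 (0.37 without the entry limit). Sr-CI, a pattern recognition receptor for bacteria on hemocytes, had 984 CPM at 96 h AEL against 185 CPM at 72 h AEL and was 5.31-fold higher (5.15 to 5.49). Croquemort (crq, chromosome 2L, 448254 to 453024), the CD36-related receptor for dying cells, had 111 CPM at 96 h AEL against 20.4 CPM at 72 h AEL and was 5.47-fold higher (4.97 to 6.02). The other gene called, ninaD, a CD36-related carotenoid transporter, was low, with 282 counts at 96 h AEL and 52 counts at 72 h AEL (7.49-fold, 4.90 to 11.9). Within the CD36-related family the direction differed. At 1.97 CPM at 96 h AEL against 9.60 CPM at 72 h AEL, santa-maria had a log2 ratio of -1.83, and emp, at 4.53 CPM at 96 h AEL against 12.9 CPM at 72 h AEL, had one of -1.33, and neither was called. Of the plasmatocyte markers Ama and vir-1 were highest at 120 h AEL. Ama, which was not called, had 3.80 CPM at 72 h AEL, 10.4 CPM at 96 h AEL and 82.9 CPM at 120 h AEL. Likewise vir-1 had 22.8 CPM at 72 h AEL, 31.7 CPM at 96 h AEL and 89.2 CPM at 120 h AEL. The genes vkg, Pxn and Hml, also expressed in plasmatocytes, are given with the matrix and clotting genes.

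The machinery behind uptake shifted by less than 4-fold. Of 20 phagosome and lysosome genes 0 were called, 16 had ratios above 0 and the median log2 ratio was 0.49. Lamp1, a protein of the lysosomal membrane, had 516 CPM at 96 h AEL against 207 CPM at 72 h AEL (2.5-fold, 2.41 to 2.58). LManII (LM408 in the files), a lysosomal mannosidase, had 3218 CPM against 1357 CPM at 72 h AEL (2.37-fold, 2.34 to 2.40).

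**Figure D2:**
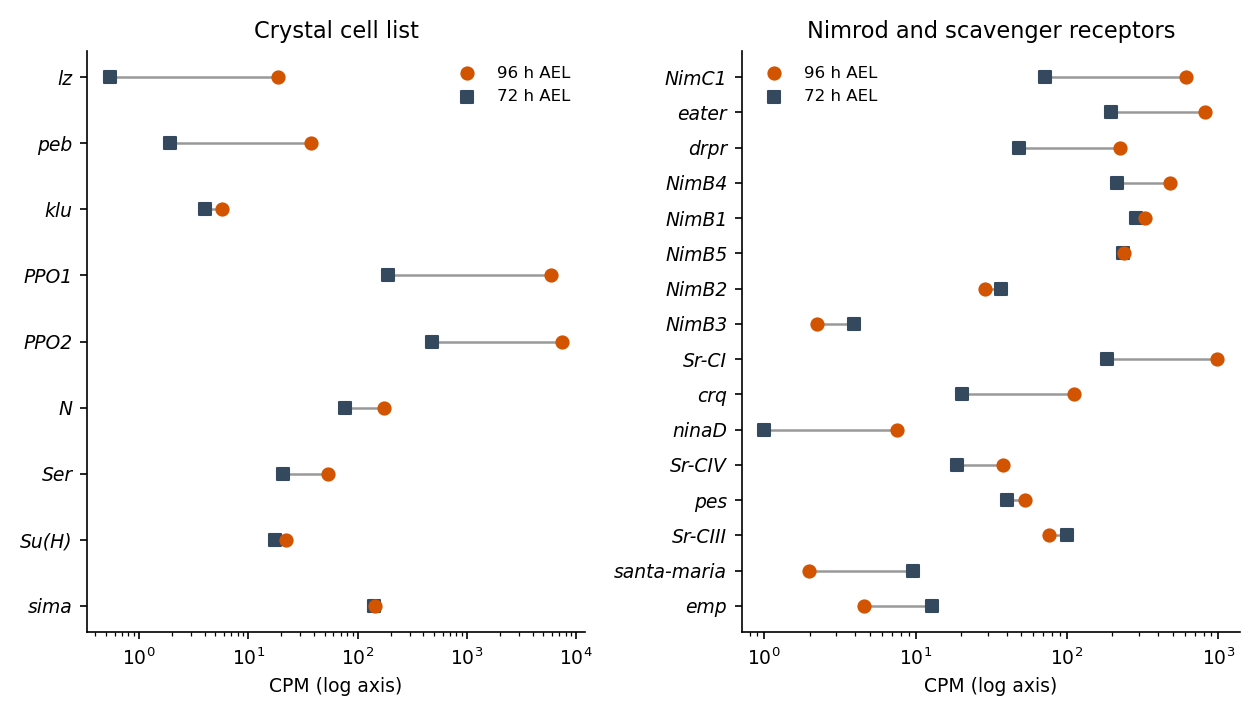
Levels of the 9 crystal cell genes (left) and of the 16 Nimrod and scavenger receptors included (right) on a log axis in CPM, with 1 circle for the 96 h AEL library and 1 square for the 72 h AEL library. The circles of lz, peb, PPO1 and PPO2 lie 15.6-fold or more to the right of their squares, while those of emp and santa-maria lie to the left.

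Actin and motility genes showed a shift of the same size. Of 23 genes 20 had ratios above 0 and the median log2 ratio was 0.57. Among them 0 were called higher and 2 lower, against 1.22% and 8.71% of all genes, so the share called lower was close to that of all genes. Act42A, a cytoplasmic actin, was at 4746 CPM at 96 h AEL and 2240 CPM at 72 h AEL (2.12-fold, 2.10 to 2.14). Act57B and Act87E, the actins of larval muscle, were the genes called lower. Act57B had 215 CPM at 96 h AEL against 1768 CPM at 72 h AEL (log2 ratio -3.04), and Act87E had 15.6 CPM against 234 CPM at 72 h AEL (-3.83). Act57B also stands on the muscle list, whose summed level was 1799 CPM at 96 h AEL and 6235 CPM at 72 h AEL, and the part of muscle RNA in these losses was not tested.

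Lectins split evenly. Of 8 included, 2 were called higher and 2 lower, against 1.22% and 8.71% of all genes, and the median log2 ratio was -0.03. That median was 1.35 when only genes with 10 CPM or more in either library were kept. The list summed to 573 CPM at 96 h AEL against 244 CPM at 72 h AEL. The C-type lectin gene lectin-28C (chromosome 2L, 7857077 to 7860120) had 4163 counts at 96 h AEL against 48 counts at 72 h AEL, the largest log2 ratio of any gene with 10 CPM or more in either library (5.86). The gene lectin-24Db had 228 CPM at 96 h AEL against 44.6 CPM at 72 h AEL (5.11-fold, 4.79 to 5.46). Lectin-galC1, a galactose-binding C-type lectin, had 53 counts at 96 h AEL against 3848 counts at 72 h AEL and was 52.6-fold lower (36.5 to 82.3). A smaller loss was that of lectin-33A, with 11 counts at 96 h AEL against 270 counts at 72 h AEL (log2 ratio -2.26). Thus the list held gains and losses of similar size in log2 ratio, which its median does not show.

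Genes of clotting and matrix proteins were mostly at higher levels at 96 h AEL, with a few large losses among them. Of 6 clotting genes, 0 were called higher and 2 lower, with a median log2 ratio of 0.79. Hml was at 1.88-fold (1.87 to 1.89), and Tig (Tiggrin, an integrin ligand) at 1.59-fold (1.56 to 1.62). Pxn (Peroxidasin, which cross-links collagen IV) had 5860 CPM at 96 h AEL against 1937 CPM at 72 h AEL (3.03-fold, 2.99 to 3.06). Glt (Glutactin, a basement membrane protein) had 3285 CPM against 991 CPM at 72 h AEL (3.32-fold, 3.27 to 3.36). By contrast fondue (fon, chromosome 2L, 19383138 to 19386205), a clot protein, had 290 counts at 96 h AEL against 22477 counts at 72 h AEL, or 7.73 against 434 CPM, and was 56.1-fold lower (47.6 to 66.6). The clot-linking enzyme transglutaminase (Tg) had 2.35 CPM at 96 h AEL against 35.3 CPM at 72 h AEL and was 15.1-fold lower. The fat body also makes fon. The fat body list gave no single direction, with 6 of 9 genes above 0 and a median log2 ratio of 0.64. That median was -1.91 when only genes with 10 CPM or more in either library were kept. The part of fat body RNA in the loss of fon was not tested.

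Both collagen IV chains, vkg and Col4a1 (Cg25C in the files), were at 1.89-fold (1.87 to 1.90 each). The level of vkg was 4620 CPM at 96 h AEL against 2451 CPM at 72 h AEL, and that of Col4a1 was 6910 CPM against 3662 CPM at 72 h AEL. These chains are assembled into the same trimer, and their ratios agree within counting error. Papilin (Ppn), a matrix protein of hemocytes, was among the 10 largest losses in CPM, at 9565 CPM at 96 h AEL against 11387 CPM at 72 h AEL, although its ratio was only 0.840 (0.835 to 0.845). Of 16 matrix genes 0 were called higher and 2 lower, against 1.22% and 8.71% of all genes. Perlecan (trol), the heparan sulfate proteoglycan of basement membranes, was at 303 CPM at 96 h AEL against 1573 CPM at 72 h AEL and 5.19-fold lower. Multiplexin (Mp), a collagen found in the heart, was at 18.3 CPM against 82.7 CPM at 72 h AEL and 4.51-fold lower. The thioester proteins, which are complement-like, had 0 of 4 called and summed to 13549 CPM at 96 h AEL and 13503 CPM at 72 h AEL, with Tep1 at 2.37-fold (2.34 to 2.41) and Mcr at 1.33-fold (1.23 to 1.43).

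Among humoral immunity genes, few were called. Of 21 antimicrobial peptide genes 3 reached 1 CPM in either library, 1 of them at 72 h AEL, and 2 of the 3 were called higher. Genes that entered through 96 h AEL alone had to be higher, and without the entry limit the median log2 ratio of the list was 0.07. Drosocin (Dro, chromosome 2R, 14745961 to 14746714) had 467 counts at 96 h AEL against 50 counts at 72 h AEL (12.9-fold, 8.54 to 20.4). Drosomycin (Drs) had 146 counts at 96 h AEL against 3 counts at 72 h AEL, a ratio of 67.2 (13.5 to 424). The other was AttB, with 101 counts at 96 h AEL against 4 counts at 72 h AEL and a log2 ratio of 1.78, chosen after its values were seen. These are low levels, and the list summed to 21.7 CPM at 96 h AEL against 2.90 CPM at 72 h AEL. Of 25 Toll and Imd pathway genes 0 were called, but 23 had ratios above 0 and the median log2 ratio was 0.36. The extremes were PGRP-LA, an Imd pathway recognition protein, at 16.3 CPM at 96 h AEL against 4.63 CPM at 72 h AEL (3.53-fold, 2.84 to 4.39), and GNBP3, the sensor of fungal glucan, at 2.19 CPM against 11.3 CPM at 72 h AEL (log2 ratio -1.95).

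The proteases, serpins and enzymes around melanization held more losses than gains. Of 18 included, 2 were called higher and 7 lower, against 1.22% and 8.71% of all genes, with a median log2 ratio of -1.35. All 18 reached 1 CPM at 72 h AEL but only 12 at 96 h AEL, so the rest entered through 72 h AEL alone and had to be lower. The gains were MP1 (chromosome 3R, 4307908 to 4309835), a protease of the melanization cascade, at 123 CPM at 96 h AEL against 27.2 CPM at 72 h AEL (4.53-fold, 4.16 to 4.94), and yellow-f (chromosome 3R, 12991449 to 12993201), a dopachrome conversion enzyme, at 61.0 CPM against 5.46 CPM at 72 h AEL (11.2-fold, 9.33 to 13.3). The neighbouring paralog yellow-f2 went the opposite way, with 2 counts at 96 h AEL and 429 counts at 72 h AEL, 155 times as many after scaling (27.5 to 6150). The other losses were Hayan, psh and Sp7, which act as proteases upstream of prophenoloxidase or Toll, the serpins Spn77Ba and nec, and Ddc, which makes dopamine for cuticle and melanin. Their levels lay between 0.160 and 1.28 CPM at 96 h AEL and between 3.86 and 11.6 CPM at 72 h AEL, so that none was abundant at either time. Several of these genes are also expressed in epidermis, trachea or fat body. The epidermis list had 10 of 17 genes called lower and 1 higher, and the trachea list 4 of 8 lower and 0 higher. The fat body list had 3 of 9 genes called lower and 2 higher. Their part in these losses was not tested.

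Few prohemocyte genes were called. Of 19 genes 1 was called higher and 0 lower, and the median log2 ratio was -0.14. Tep4, a marker of the progenitor zone, was at 10744 CPM at 96 h AEL against 12238 CPM at 72 h AEL (0.878, interval 0.873 to 0.883). Ance, its usual companion, was at 7043 CPM against 5575 CPM at 72 h AEL (1.26-fold, 1.25 to 1.27). So these markers differed in direction by amounts well past counting error but small beside 4-fold. The cytokine receptor dome had a ratio of 0.687 (0.630 to 0.747), and the cadherin shg one of 0.685 (0.611 to 0.766). The gene called higher was CG30090 (Erasp in current annotation, chromosome 2R, 15689826 to 15691014), with a serine protease name among its RefSeq synonyms, which had 217 CPM at 96 h AEL against 21.6 CPM at 72 h AEL (log2 ratio 3.27). Nplp2, a marker of the intermediate zone between progenitors and cortex, was at 9448 CPM at 72 h AEL, 5519 CPM at 96 h AEL (0.584 of 72 h AEL, 0.580 to 0.588) and 2145 CPM at 120 h AEL.

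Of 10 niche genes included, 0 were called higher and 1 lower, against 1.22% and 8.71% of all genes, with a median log2 ratio of -0.23. The homeodomain protein Antp, which sets the niche, had 8.64 CPM at 96 h AEL and 16.9 CPM at 72 h AEL (log2 ratio -0.89). The factor kn (collier) had 44.4 CPM at 96 h AEL and 76.8 CPM at 72 h AEL (-0.78). The signal hh was under 1 CPM in both libraries, with 34 counts at 96 h AEL and 38 counts at 72 h AEL. The gene called lower was ImpL2, a secreted inhibitor of insulin signalling that many tissues make, at 10.4 CPM at 96 h AEL against 75.6 CPM at 72 h AEL (7.25-fold lower, 6.24 to 8.41).

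Of 8 lamellocyte genes 1 was called higher and 1 lower, 6 had ratios above 0 and the median log2 ratio was 0.69. The integrin subunit gene ItgalphaPS4 (chromosome 2R, 15258761 to 15262873) had 227 counts at 96 h AEL and 0 counts at 72 h AEL, and so was at least 104-fold higher with 72 h AEL set to the floor of 3 counts. PPO3, the prophenoloxidase of lamellocytes, was at 5.63 CPM at 96 h AEL against 0.966 CPM at 72 h AEL (5.83-fold, 3.76 to 9.45), yet missed the call on CPM + 1 with a log2 ratio of 1.75. The surface marker atilla, in contrast, was at 3.73 CPM at 96 h AEL against 6.6 CPM at 72 h AEL (0.565, 0.422 to 0.751). The gene called lower was Tret1-1, a trehalose transporter, at 4.32 CPM at 96 h AEL against 67.9 CPM at 72 h AEL (15.7-fold lower, 12.6 to 19.9). Of 23 blood transcription factors 1 was called, namely lz, while srp was at 1.59-fold (1.55 to 1.64) and its partner ush at 1.95-fold (1.86 to 2.05).

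**Figure D3:**
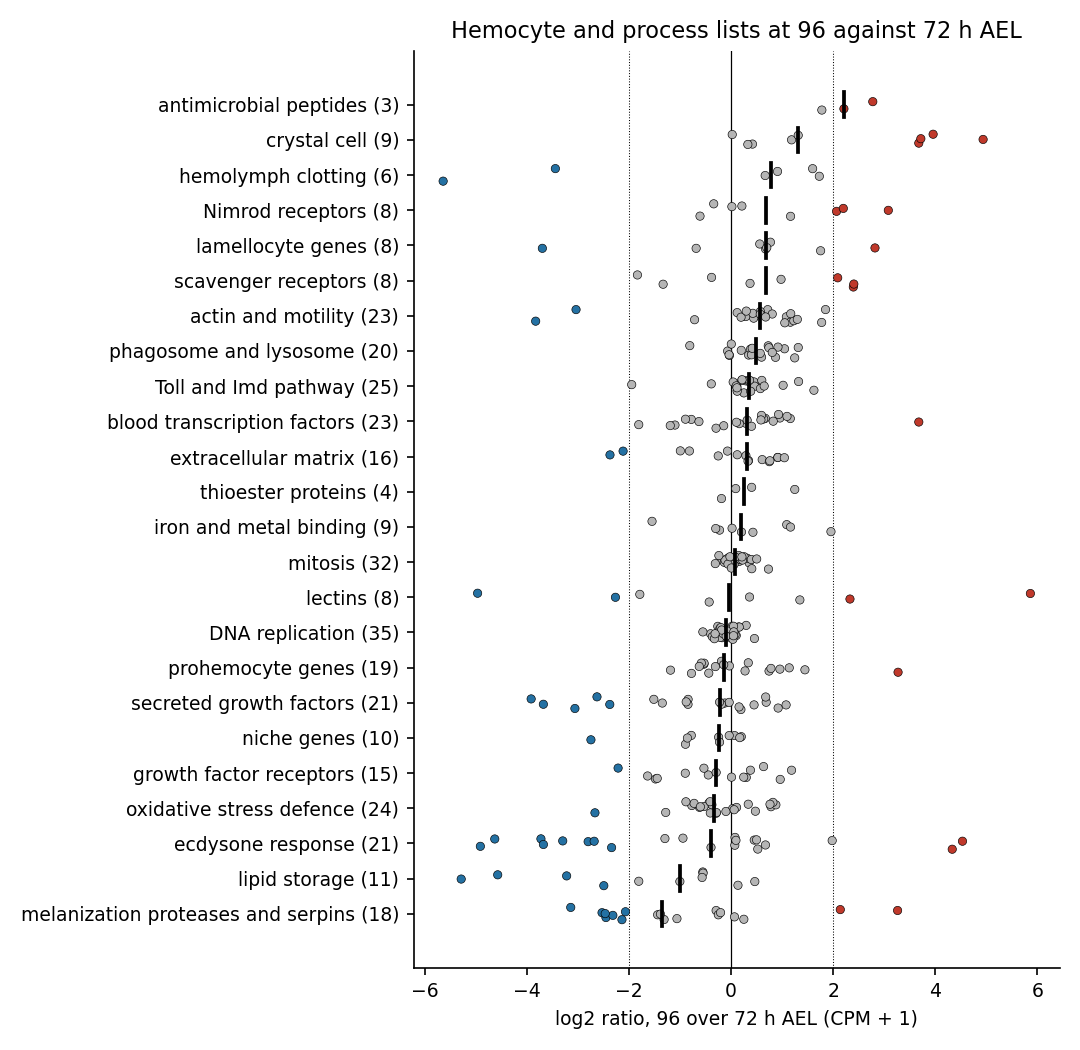
Log2 ratios at 96 over 72 h AEL (horizontal axis, on CPM + 1) of the genes of each hemocyte and process list, with the number of genes included in parentheses, 1 point per gene, red for genes called higher, blue for genes called lower and a black bar at the median. Crystal cell genes have their 4 red points at 3.68 or more, and the melanization, lipid storage and ecdysone lists hold most of the blue points.

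Genes of the ecdysone response separated into opposite groups. Of 21 included, 2 were called higher and 8 lower, against 1.22% and 8.71% of all genes. Ratios were above 0 for 10 and below 0 for 11, and the median log2 ratio was -0.39. All 21 reached 1 CPM at 72 h AEL but only 13 at 96 h AEL, so the rest entered through 72 h AEL alone and had to be lower. Without the entry limit the median was -0.11. The early genes Eip74EF (chromosome 3L, 17558672 to 17619325) and br, transcription factors that ecdysone switches on directly, were the genes called higher. Eip74EF had 116 CPM at 96 h AEL against 4.06 CPM at 72 h AEL (28.6-fold, 23.5 to 35.1), and br had 515 CPM against 24.6 CPM at 72 h AEL (20.9-fold, 19.3 to 22.7). The receptor subunit EcR was at 107 CPM at 96 h AEL against 26.3 CPM at 72 h AEL, which is 4.06-fold (3.72 to 4.43) but just short of the call with a log2 ratio of 1.98. Its partner usp was at 47.0 CPM at 96 h AEL against 44.7 CPM at 72 h AEL. Eip75B, also a direct early target, was at 86.7 CPM against 82.2 CPM at 72 h AEL. EcR, usp and Eip75B were chosen after their values were seen. Therefore the early genes did not move as 1 group.

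The lower genes were nuclear receptors, Imp genes and Cyp18a1. The nuclear receptor Hr4 (chromosome X, 1941940 to 2007956) had 17 counts at 96 h AEL against 2210 counts at 72 h AEL and was 94.1-fold lower (50.6 to 232). Hr3 (Hr46 in the files) had 0.320 CPM at 96 h AEL against 8.19 CPM at 72 h AEL, and Eip78C had 1.07 CPM against 9.46 CPM at 72 h AEL. The Imp genes, named for ecdysone-inducible messages bound to membranes, were among them. ImpL1 had 4 counts at 96 h AEL against 1365 counts at 72 h AEL (log2 ratio -4.63), and ImpE1 had 20 counts against 997 counts at 72 h AEL (-3.72). ImpE3 had 12 counts at 96 h AEL against 620 counts at 72 h AEL (-3.30), and ImpE2 had 2 counts against 298 counts at 72 h AEL, 108 times as many after scaling (19.1 to 4290). Cyp18a1, which inactivates ecdysone, had 0.560 CPM at 96 h AEL against 18.9 CPM at 72 h AEL (-3.67). The ImpE and ImpL1 genes were first described in imaginal discs, and Cyp18a1 and the nuclear receptors are expressed in many larval tissues. The list of imaginal disc factors summed to 264 CPM at 96 h AEL against 237 CPM at 72 h AEL, with 1 of 12 called lower, whereas epidermis and cuticle genes summed to 160 CPM at 96 h AEL against 372 CPM at 72 h AEL with 10 of 17 called lower and 1 higher. Their part in these losses was not tested.

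**Figure D4:**
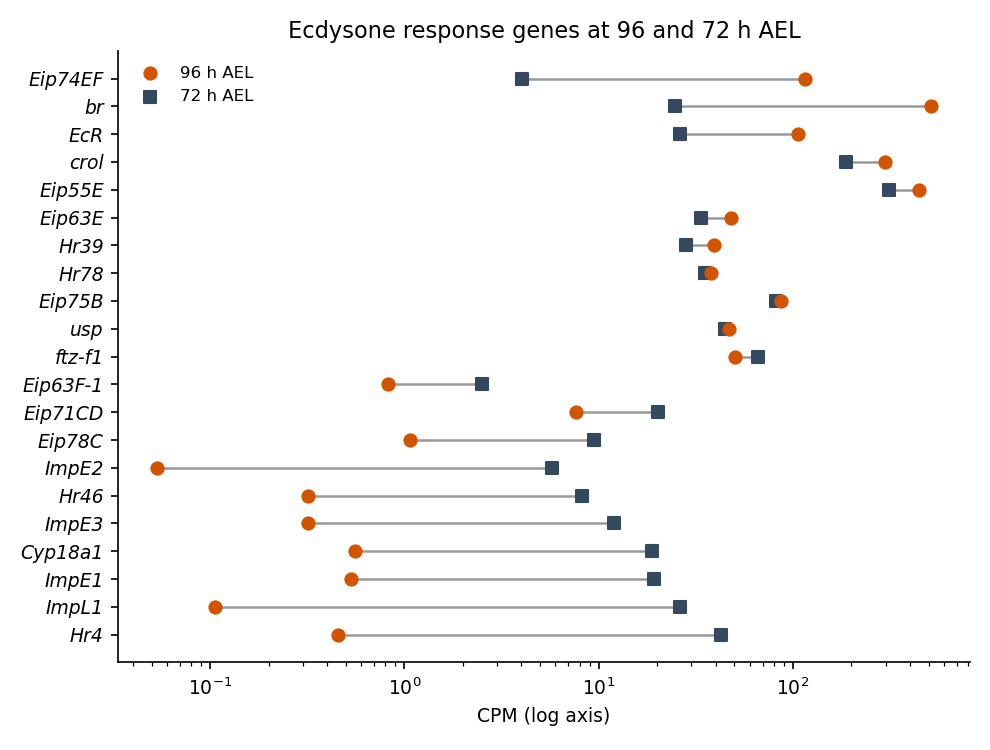
Levels of the 21 ecdysone response genes included (CPM, log axis), with circles for the 96 h AEL library and squares for the 72 h AEL library, ordered by log2 ratio. Eip74EF, br and EcR lie 4-fold or more to the right at 96 h AEL, and the 8 genes at the bottom lie at 1.07 CPM or less at 96 h AEL.

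Among secreted growth factors and lipid genes the calls were all losses, which were also the more common call over all genes (8.71% lower, 1.22% higher). Of 21 growth factor genes 0 were called higher and 5 lower, with a median log2 ratio of -0.23, although they summed to 7873 CPM at 96 h AEL against 7183 CPM at 72 h AEL. All 21 reached 1 CPM at 72 h AEL but only 17 at 96 h AEL, so the rest entered through 72 h AEL alone and had to be lower. Within the imaginal disc growth factor family, chitinase-like secreted proteins, Idgf4 had 611 counts at 96 h AEL against 13457 counts at 72 h AEL (log2 ratio -3.92). Idgf5 had 0 counts at 96 h AEL against 610 counts at 72 h AEL and was at least 147-fold lower, with 96 h AEL set to 3 counts. The related Idgf1, Idgf2 and Idgf3, chosen after their values were seen, had ratios of 1.92, 0.918 and 1.61, so the family did not move together. The other losses were the activin-like ligand daw (1.65 CPM at 96 h AEL against 12.8 CPM at 72 h AEL), the adenosine deaminase Adgf-D (0.293 against 9.77 CPM) and the heparin-binding miple (log2 ratio -2.63). Among 15 receptors only tor, the receptor of prothoracicotropic hormone in the ring gland, was called, at 1.52 CPM at 96 h AEL against 10.7 CPM at 72 h AEL. The hemocyte receptor Pvr was at 780 CPM at 96 h AEL against 400 CPM at 72 h AEL (1.95-fold, 1.90 to 2.0).

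Of 11 lipid storage and transport genes 0 were called higher and 4 lower, with a median log2 ratio of -1.0. Apolpp (Rfabg in the files, chromosome 4, 1060969 to 1077273), the precursor of the blood lipid carrier lipophorin, had 1391 counts at 96 h AEL against 76849 counts at 72 h AEL and was 40.0-fold lower (37.1 to 43.2). Apoltp, which loads lipid onto lipophorin, was at 5.60 CPM at 96 h AEL against 156 CPM at 72 h AEL. The lipid droplet protein Lsd-1 was at 10.9 CPM against 110 CPM at 72 h AEL, and the lipophorin receptor LpR1 at 0.533 CPM against 7.63 CPM at 72 h AEL. The droplet protein Lsd-2, the lipophorin receptor LpR2 and the mitochondrial protein Sirup were not called. Lsd-2 was at 350 CPM at 96 h AEL against 254 CPM at 72 h AEL (1.38-fold, 1.33 to 1.43), LpR2 had a ratio of 0.678 (0.630 to 0.729) and Sirup one of 0.663 (0.553 to 0.790), and these values were seen before the genes were chosen. Apolpp and Apoltp also stand on the fat body list, and the fall of its sum was theirs: the list summed to 349 CPM at 96 h AEL against 1838 CPM at 72 h AEL, and without them to 306 CPM at 96 h AEL against 198 CPM at 72 h AEL. Much of that remainder was Lsp1beta, at 159 CPM at 96 h AEL against 93.9 CPM at 72 h AEL, while Gnmt was called lower. Apolpp and Apoltp were left out with their values known, and the part of fat body RNA in their loss was not tested.

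Defence against oxidative stress and metal binding changed little. Of 24 stress genes 1 was called lower and 0 higher, with a median log2 ratio of -0.33, and the gene called was the glutathione transferase GstD7 at 25.7 CPM at 96 h AEL against 168 CPM at 72 h AEL (log2 ratio -2.67). Of 9 metal genes 0 were called. The metallothionein MtnB had 108 counts at 96 h AEL and 0 counts at 72 h AEL, which is at least 49.7-fold higher but missed the call on CPM + 1, and the blood iron carrier Tsf1 had 10 counts at 96 h AEL against 140 counts at 72 h AEL (log2 ratio -1.55).

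Among the hemocyte and process lists with more than 3 genes included, those of cell cycle genes spanned the narrowest ranges of ratios. Of 35 DNA replication genes 0 were called and the log2 ratios ran from -0.55 for PCNA, the polymerase clamp (124 CPM at 96 h AEL against 182 CPM at 72 h AEL), to 0.46 for CycE (49.7 against 35.9 CPM), with a median of -0.09. Of 32 mitosis genes 0 were called, the highest log2 ratio was that of the Cdc25 phosphatase stg (262 CPM at 96 h AEL against 157 CPM at 72 h AEL, 0.73), followed by the securin pim at 0.50, and the median was 0.07, which became -0.01 with total-count scaling. Both lists lay within a narrower band than any hemocyte list with a called gene, other than the 3 antimicrobial peptide genes (1.78 to 2.77).

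Genes that appeared were defined as those at 1 CPM or less at 72 h AEL and 10 CPM or more at 96 h AEL, and 13 genes (0.145%) did so. They were lectin-28C, CG14946 (firl), Lsp1alpha, CG18249, the non-coding pncr002:3R, lz, CG31516, Ir7g, Dro, Cyp4d8, CG43236 (Mtkl), CG6034 and Ccn. Of them lz, lectin-28C and Dro (23.1%) are on the hemocyte and process lists, against 4.05% of all genes included. The lists were chosen with earlier results of these data known. CG14946 (chromosome 2L, 12063457 to 12066775) had 1652 counts at 96 h AEL against 10 counts at 72 h AEL, which is 228-fold (97.4 to 704). CG43236, a relative of the antimicrobial peptide Metchnikowin by its name, had 407 counts at 96 h AEL against 3 counts at 72 h AEL, a ratio of 187 (38.5 to 1171). Lsp1alpha, a storage protein of the fat body, had 996 counts at 96 h AEL against 50 counts at 72 h AEL (27.5-fold, 18.4 to 42.9), although the summed fat body list was lower. The RNA pncr002:3R had 0.927 CPM at 72 h AEL, 19.8 CPM at 96 h AEL and 0.905 CPM at 120 h AEL, and of the other genes that appeared none was below 12.6 CPM at 120 h AEL. Genes of this set beyond the hemocyte lists, CG14946 and Lsp1alpha are named after their values were seen.

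Further large rises were outside the hemocyte lists. Inos, which makes inositol phosphate from glucose phosphate, had 1585 CPM at 96 h AEL against 33.7 CPM at 72 h AEL (47.0-fold, 44.0 to 50.4). CG15343 (98.3 CPM at 96 h AEL against 1.76 CPM at 72 h AEL) and CG33648 (75.0 against 2.24 CPM) followed, then CG12522, CG4793, CG30148, CG10467 and CG9360 with folds between 15.7 and 19.7. By level, regucalcin (chromosome X, 12012377 to 12017375), related to a calcium-binding protein of vertebrates, was among the 10 largest gains, at 8083 CPM at 96 h AEL against 1661 CPM at 72 h AEL (4.87-fold, 4.81 to 4.92). The largest gain in CPM of all was that of mt:lrRNA, the large ribosomal RNA of mitochondria (42916 CPM at 96 h AEL against 22759 CPM at 72 h AEL, 1.89-fold). The 10 largest losses in CPM included translation genes with small changes, such as the ribosomal RpL4 at a ratio of 0.731 and the elongation factor EF2 at 0.822. Of the 14 mitochondrially encoded genes included, 14 had ratios above 0 and 3 were called higher, whereas 78 of the 84 cytosolic ribosomal protein genes had ratios below 0 and 0 were called.

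Genes that disappeared were at 10 CPM or more at 72 h AEL and 1 CPM or less at 96 h AEL, and 247 genes (2.75%) did so, summing to 53.9 CPM at 96 h AEL against 9014 CPM at 72 h AEL. On a hemocyte or process list were 6 of them (2.43%), ImpE1, ImpE3, ImpL1, Cyp18a1, Hr4 and Idgf5, against 363 (4.05%) of all genes included. A further 17 (6.88%) were on lists of other tissues, against 1.52% of all genes included, and 224 were on neither, of which many have no name beyond an annotation number (140 of the 247). The greatest falls were those of such genes. CG11300 had 2 counts at 96 h AEL against 33995 counts at 72 h AEL, 12310 times as many after scaling (2209 to 486256). CG32198 had 0 counts at 96 h AEL against 25999 counts at 72 h AEL, and CG12310 had 0 counts against 17868 counts at 72 h AEL. Among named genes, Jon65Aiv, a digestive protease of the midgut, had 0 counts at 96 h AEL against 9079 counts at 72 h AEL (at least 2192-fold lower). Obp44a, an odorant-binding protein, had 6 counts at 96 h AEL against 8528 counts at 72 h AEL, and the mucin gene Muc96D had 8 counts against 6332 counts at 72 h AEL. The log2 ratio of nol was -7.92, and that of prc, a matrix gene of pericardial cells, was -6.6.

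The marker lists of other tissues were lower at 96 h AEL with 1 exception by summed level. Of 15 midgut genes included, 0 were called higher and 9 lower, and all 32 matched midgut genes summed to 0.880 CPM at 96 h AEL against 447 CPM at 72 h AEL, with 28 at 0 counts at 96 h AEL. Salivary gland genes summed to 0.320 CPM at 96 h AEL against 21.6 CPM at 72 h AEL, tracheal genes to 35.9 against 323 CPM, genes of neurons and glia to 111 against 335 CPM, and heart and pericardial genes to 361 against 1024 CPM. Every midgut and salivary gland gene was below 1 CPM at 96 h AEL, so those included entered through 72 h AEL alone and had to be lower. Without the entry limit, which adds genes near 0 in both libraries, the median log2 ratio was -0.76 for midgut and -0.05 for salivary gland. Each of the other tissue lists still had genes at 1 CPM or more at 96 h AEL, but of the 22 genes of neurons and glia only 6 did. Of the 111 CPM of that list, 62.7 CPM were from Syx1A alone, which had 33.6 CPM at 72 h AEL.

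Muscle genes were the most abundant of these in both libraries. Of 22 included, 0 were called higher and 19 lower, with Mhc, the muscle myosin heavy chain, at 48.2 CPM at 96 h AEL against 902 CPM at 72 h AEL (18.7-fold lower, log2 ratio -4.20) and the light chain Mlc2 at 50.8 CPM against 704 CPM at 72 h AEL. Of the synaptic genes, nSyb had 16 counts at 96 h AEL against 1505 counts at 72 h AEL, Syt1 had 18 counts against 1172 counts at 72 h AEL, and brp had 0 counts against 577 counts at 72 h AEL. In the ring gland, which makes ecdysone, the steroid enzymes phm, sad and spok were not called. The level of phm was 86.3 CPM at 96 h AEL against 237 CPM at 72 h AEL, that of sad 43.1 CPM against 164 CPM at 72 h AEL, and that of spok 139 CPM against 205 CPM at 72 h AEL. The dorsal vessel factor Hand was at 22.1 CPM at 96 h AEL against 54.2 CPM at 72 h AEL (log2 ratio -1.26). Only the fat body list had genes called in both directions beside the cuticle list, with 2 higher and 3 lower of 9, and its sum was lower through apolpp and Apoltp. The imaginal disc factors were the exception by sum, with a median log2 ratio of -0.78. Without all genes of these tissue lists, 106 genes were higher and 712 lower, an alternative added after the data were seen. How much of the remaining fall came from other tissues was not tested.

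**Figure D5:**
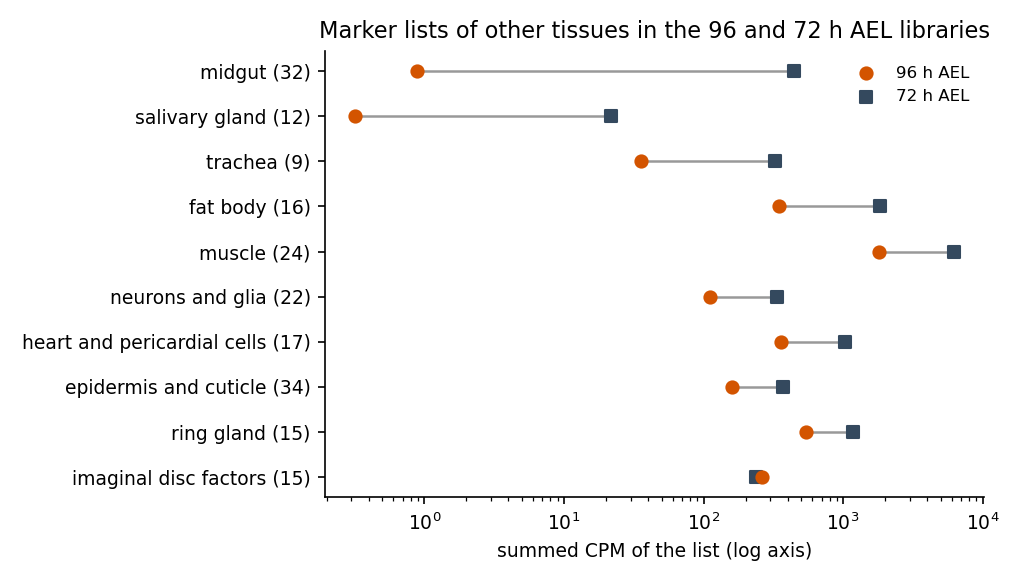
Summed level of each marker list of another tissue (CPM, log axis), with the number of genes matched in parentheses, circles for the 96 h AEL library and squares for the 72 h AEL library. Midgut and salivary gland lie furthest to the left at 96 h AEL, at 0.880 and 0.320 CPM, and the imaginal disc factors are the only list whose circle lies to the right of its square.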

How the data were processed

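The authors deposited raw gene counts, whole numbers with no normalization, for lymph glands at 96 and 72 h AEL (1 library each) and at 120 h AEL, which entered the scaling and is printed beside a few genes. The submitters' processing notes name FastQC 0.11.8, STAR 2.5.3a, featureCounts 1.6.0 and BDGP6, with no role or order. The annotation release, the use of strand and the treatment of shared reads are not given in the sources used here, so reads of overlapping, antisense and near-identical genes may be misplaced. Coordinates and names are from Ensembl 115 (BDGP6.54), where 8779 of the 8967 genes matched by identifier.

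CPM were scaled by TMM factors (edgeR 4.0.16, R 4.3.3) fitted on genes with 1 CPM or more in any library. Log2 ratios were taken on CPM + 1 (pseudocount 1), so changes at low levels are understated. With 1 library a time no test was run. Folds are ratios of scaled counts, with an exact (Clopper-Pearson) 95% interval on halved counts that covers counting error only. A library at 0 counts was set to 3 counts and the fold called a bound, without counting error, and at 1 to 3 counts the plain ratio is given with its interval. DESeq2 1.42.0 size factors were an alternative. The remaining steps used pandas 2.3.3, SciPy 1.17.1, Matplotlib 3.10.9 and NumPy 2.4.6 under Python 3.11.15 and were tested on simulated data.

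The genes and lists were chosen with earlier results of these data known. Named genes are cell type markers, the 15 largest rises and 15 largest falls at 10 CPM or more, the 10 largest gains and losses in CPM, called genes of each hemocyte list (the 2 largest changes where none was called) and the 3 most abundant genes at 72 h AEL of each other tissue list. Other names were chosen after their values were seen. Promoter motifs were planned and not analysed here, since no promoter sequence was used.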

Additional observations from a re-analysis of the deposited data

How the results depend on the processing

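No paired analysis was possible because there was 1 library at each time. The 4 counts changed least with the scaling and depth: total-count scaling, DESeq2 size factors and counts thinned to the smaller total kept each of them within 1.5-fold. Leaving out the genes of other tissue lists, an alternative added after the data were seen, did so too. Removing the filter could not change the counts of higher and lower genes. Genes under 1 CPM in both libraries cannot reach 4-fold on CPM + 1. A pseudocount of 0.1 CPM gave 183 higher and 1526 lower genes and 5 CPM gave 66 and 240, against 109 and 781. A filter of 10 CPM left 442 lower genes, a 2-fold threshold gave 431 higher and 1770 lower, and a whole interval past 4-fold gave 1212 lower. At levels of 0.5 and 5 CPM, 385 genes disappeared, and at 2 and 20 CPM, 6 appeared and 120 disappeared, against 13 and 247. These median log2 ratios changed sign: mitosis -0.00998 (total-count scaling), lectins 0.0703 (pseudocount of 5 CPM) and, with the filter of 10 CPM, lectins 1.35, prohemocyte genes 0.0645, growth factor receptors 0.00884, ecdysone response 0.0772, fat body -1.91 and all genes 0.0561. The cause was not tested, other than that the filter removes low genes. Of 244 medians computed under these alternatives, 219 moved by 0.5 or less on the log2 scale. Folds of named genes were recomputed only with total-count scaling, DESeq2 size factors and intervals on the counts as deposited. Their intervals kept their place above, over or below 1 in 462 of 462. Intervals on unhalved counts are narrower around the same ratio, so those clear of 1 had to stay clear. With total-count scaling eater missed the call (log2 ratio 1.98) and GNBP3 passed it (-2.02). Promoter motifs were not run. Depth limits genes near 3 counts, whose folds depend on a few reads.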

Other observations

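Gene families grouped by name also held losses. Some of their members stand on the lists above, such as Cyp18a1 and Jon65Aiv, so these losses partly repeat those already given. Osiris (Osi) genes, a tandem family expressed in epidermis and trachea, had 13 members included, of which 0 were called higher and 10 lower. They summed to 0.560 CPM at 96 h AEL against 466 CPM at 72 h AEL, and Osi6 had 0 counts against 5011 counts at 72 h AEL. Jonah proteases of the gut had 9 of 13 called lower, and cuticle proteins (Cpr, Lcp and Twdl) had 31 of 46 called lower and 1 higher, with a median log2 ratio of -2.57 (-3.79 with undetected genes at 3 counts). Odorant-binding proteins had 6 of 9 called lower and mucins 4 of 5. By contrast 0 of 31 proteasome genes were called, with a median log2 ratio of -0.14, and 1 of 21 subunits of the vacuolar proton pump was called lower, with a median of 0.20. Cytochrome P450 genes had 12 of 51 called lower and 2 higher. No Osiris or Jonah gene reached 1 CPM at 96 h AEL, so those included had to be lower. These families were chosen after the values of their members were seen.

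Genes that were lower lay side by side more often than other genes. Of the 766 lower genes with a chromosome position, 296 (38.6%) had a neighbouring included gene that was also lower, against 13.8% of the 7999 genes not called lower. Of 101 higher genes, 12 (11.9%) had a higher neighbour, against 2.14% of the others. The longest run of lower genes held 7 Osiris genes on chromosome 3R (6209373 to 6303653, Osi2 to Osi15), and a run of 5 on chromosome 3L (6035216 to 6054443) held yip7 and 4 Jonah proteases. Higher genes formed 1 run of 4, on chromosome 3R (28262735 to 28284725), with CG43125, CG43124, CG34436 and CG34437. Neighbours can share a family, so these shares are a description and were not tested.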
